A study of Mus musculus with 6 samples.

Results

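The genes described here encode the DNA replication machinery and the regulators that carry a cell from G1 into S phase. They are 47 genes, chosen by symbol from the 19877 genes of the deposited table: the origin licensing factors, the MCM helicase and its activators, the clamp and clamp loader, the replicative polymerases and primase, the single-strand binding protein, the enzymes that join Okazaki fragments and make deoxynucleotides, G1/S transcription factors and E-type cyclins, and the proteins that copy DNA methylation. All 47 symbols were found once each, all are annotated as protein coding in the table. The rule uses symbols alone, but the set was drawn up with earlier results of these data known.

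The RNA came from mouse cells that the labels call ADSCs, an abbreviation commonly used for adipose-derived stem cells, with genotype WT in both groups. One group was a scrambled control and the other an Ifit1 knockdown, with 3 libraries each. Ifit1 encodes an interferon-induced RNA-binding protein that limits translation. Each of the 3 batches given in the labels holds 1 library of each group. The labels give no age, vector or passage. They also do not tell whether each library had its own culture or animal, and p-values then measure no more than the spread between these libraries, which may be technical.

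DNA replication begins when the origin recognition complex, with Cdc6 and Cdt1, loads the ring of MCM2-7 onto DNA in G1. Kinases then recruit Cdc45 and GINS to turn that ring into the moving helicase, and polymerase alpha with primase starts each strand, which RFC, PCNA and polymerases delta and epsilon extend. Most of these genes are classical targets of E2F transcription factors, which the retinoblastoma family of pocket proteins holds in check until cyclin-dependent kinases release them. Their transcripts are therefore widely used as markers of cycling cells.

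The promoters of these genes were searched for E2F-type letters, and some are printed here because E2F factors are the regulators best known for this set. The letters searched on both strands were TTTGGCGC, TTTCCCGC, TTTCGCGC and TTTGCCGC, in RefSeq windows of GRCm38.p6 that run from 250 bases before to 50 bases after each start. A promoter was listed for 39 of the 47 genes, and 16 of them (41.0%) held a match, against 704 of all 27025 genes with a listed promoter (2.61%). Capitals mark the matches in the stretches below, which are written 5′ to 3′ on the strand of the gene and lie wholly before the start. Matches on opposite strands overlap in the first capital run of Mcm6 and in that of Mcm5.
Mcm6, chr1:128359725-128359835, minus strand: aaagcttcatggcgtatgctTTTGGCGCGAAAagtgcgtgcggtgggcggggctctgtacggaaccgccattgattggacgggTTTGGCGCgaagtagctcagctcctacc
Mcm5, chr8:75109336-75109387, plus strand: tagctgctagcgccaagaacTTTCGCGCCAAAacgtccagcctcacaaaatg
Pola1, chrX:93632266-93632313, minus strand: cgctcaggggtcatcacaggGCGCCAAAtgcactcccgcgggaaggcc
Orc3, chr4:34614956-34615003, minus strand: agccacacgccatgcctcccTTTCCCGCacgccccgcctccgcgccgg
Rrm2, chr12:24708134-24708233, plus strand: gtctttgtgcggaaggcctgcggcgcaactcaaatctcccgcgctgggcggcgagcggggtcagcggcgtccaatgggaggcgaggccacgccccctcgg
Mybl2, chr2:163054515-163054614, plus strand: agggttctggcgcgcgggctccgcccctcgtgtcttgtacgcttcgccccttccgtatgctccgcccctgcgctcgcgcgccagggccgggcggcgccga
Rrm2 and Mybl2 are shown because they rose furthest and held none of the letters searched in their window, which says nothing of whether E2F factors act on them.

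Between 32.2 and 40.6 M fragments per library were recovered from the deposited FPKM (a level per length of gene and per M fragments), and a gene of the set had between 356 and 19113 fragments in a library, with a median of 3122. Ifit1 fell from 4.54 ± 0.685 to 1.58 ± 0.151 FPKM (SD, n = 3 each; log2 fold change −1.27 ± 0.11 SE, limma adjusted p = 5.71e-05), so the targeted transcript followed the labels. Of 9 mesenchymal stromal markers 8 were abundant enough to test, and 2 rose and 6 fell (median log2 fold change −0.49). Itgb1 (296 FPKM in scrambled and 316 in knockdown, a call lost in 10 alternatives) and Cd44 (82.6 and 117) rose, by 0.09 and 0.50 on the log2 scale. Ly6a, Pdgfrb, Eng, Pdgfra, Thy1 and Cd34 fell by 0.82, 0.65, 0.58, 0.57, 0.42 and 0.31, and Nt5e stood near 0.2 FPKM in both groups. The list summed to between 523 and 527 FPKM in scrambled and between 516 and 546 in knockdown libraries, and its part in the results below was not tested. The 7 leukocyte and macrophage markers in the table summed to between 1.94 and 2.50 FPKM in scrambled and between 1.81 and 2.12 in knockdown libraries, almost all of it Cd68, and Ptprc was listed at 0 in every scrambled library. The 4 endothelial markers summed to at most 0.0984 FPKM, and the 1 adipocyte marker in the table, Adipoq, stood at 0.0217 FPKM or less. The 3 Schwann and neural markers summed to at most 0.311 FPKM. Among 6 epithelial and mesothelial markers only Msln, at 22.5 ± 4.36 and 15.4 ± 2.27 FPKM, was abundant enough to test; it fell (log2 fold change −0.52, limma adjusted p = 0.0148), with log2 differences of −0.92, −0.66 and 0.01 in batches 1, 2 and 3, and its part in the results below was not tested.

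The summed share of RNA taken by the replication set differed between groups by less than the spread between libraries. Its 47 genes held 6329, 6407 and 6319 of each 1 M fragments in scrambled libraries 1, 2 and 3 and 6281, 6313 and 6459 in knockdown libraries 1, 2 and 3. The means were 6352 ± 48.1 and 6351 ± 94.8 (SD, n = 3 each), and the groups overlapped. In bulk RNA, fewer cells of a type and less RNA per cell cannot be told apart.

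Among its genes, 8 rose, 7 fell and 32 did not pass the threshold. A gene was called where its limma p, adjusted by Benjamini-Hochberg over all 10311 genes tested, was under 0.05. Tested genes reached 1 FPKM in 3 or more of the libraries. All 47 genes passed that filter on low values. The called share was 31.9% of the set, where 51.0% of all tested genes were called. The share higher in knockdown was 17.0% (19.8% of all tested genes) and the share lower was 14.9% (31.1% of all tested genes). The knockdown and scrambled values did not overlap for 20 of the 47 genes (42.6%), 10 above and 10 below. That was so for 61.1% of all tested genes, 23.8% above and 37.3% below. The median log2 fold change was −0.01 for the set and −0.05 for all tested genes, and the median size of the change, whatever its sign, was 0.07 and 0.15. Among genes with a mean FPKM of 5 or more, the median log2 fold change was −0.01 both for the set and for all tested genes.

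The split between rises and falls depended on the scaling of the libraries. In place of 8 higher and 7 lower, rescaling to TPM gave 6 and 12, where 14.9% of all tested genes were higher and 39.1% lower (54.1% in all). Median centring gave 13 and 4 (29.1% and 22.2% of all, 51.3% together). Quantile normalization gave 8 and 9 (24.1% and 21.9%, 46.0% together). Removal of the trends on level, length and GC content gave 6 and 14 (24.8% and 22.7%, 47.5% together). The rises thus made up 53.3% of the called genes of the set as reported, and 33.3%, 76.5% and 47.1% in the first 3 of these scalings, with 6 of 20 in the last. The called share of the set was 38.3%, 36.2%, 36.2% and 42.6% in turn. In the last, 14 of the 47 genes were lower, a larger share than the 22.7% of all tested genes, the reverse of the main result. Median centring raised the median of the set from −0.01 to 0.05, with 0.02 for all tested genes. The median of the set lay below that of all tested genes under quantile normalization (−0.01 and 0.01) and trend removal (−0.03 and 0.01). In the main result it lay above.

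In the other alternatives the called share of the set stayed below that of all tested genes, with 1 exception. It was 31.9% against 50.8% with a pseudocount of 0.1, 32.6% against 53.0% among genes with a mean FPKM of 5 or more, 31.9% against 50.7% with the batch as a block, 25.5% against 49.2% without the variance trend and 31.9% against 52.5% with limma-voom. Leaving out scrambled library 1, 2 or 3 gave 25.5%, 27.7% and 25.5% against 42.1%, 44.2% and 42.0%. Leaving out knockdown library 1, 2 or 3 gave 25.5%, 27.7% and 34.0% against 42.9%, 43.7% and 51.2%. With no filter the order was reversed, at 27.7% against 25.4%, where genes listed near 0 enter the background. Over all 17 alternatives run, 10 of the 15 calls kept their direction and their side of the threshold in every one. Those were the rises of Rrm2, Mybl2, Orc2, Ccne2, Orc6 and Mcm10 and the falls of Mcm6, Rfc1, Rfc2 and Lig1.

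**Figure D1:**
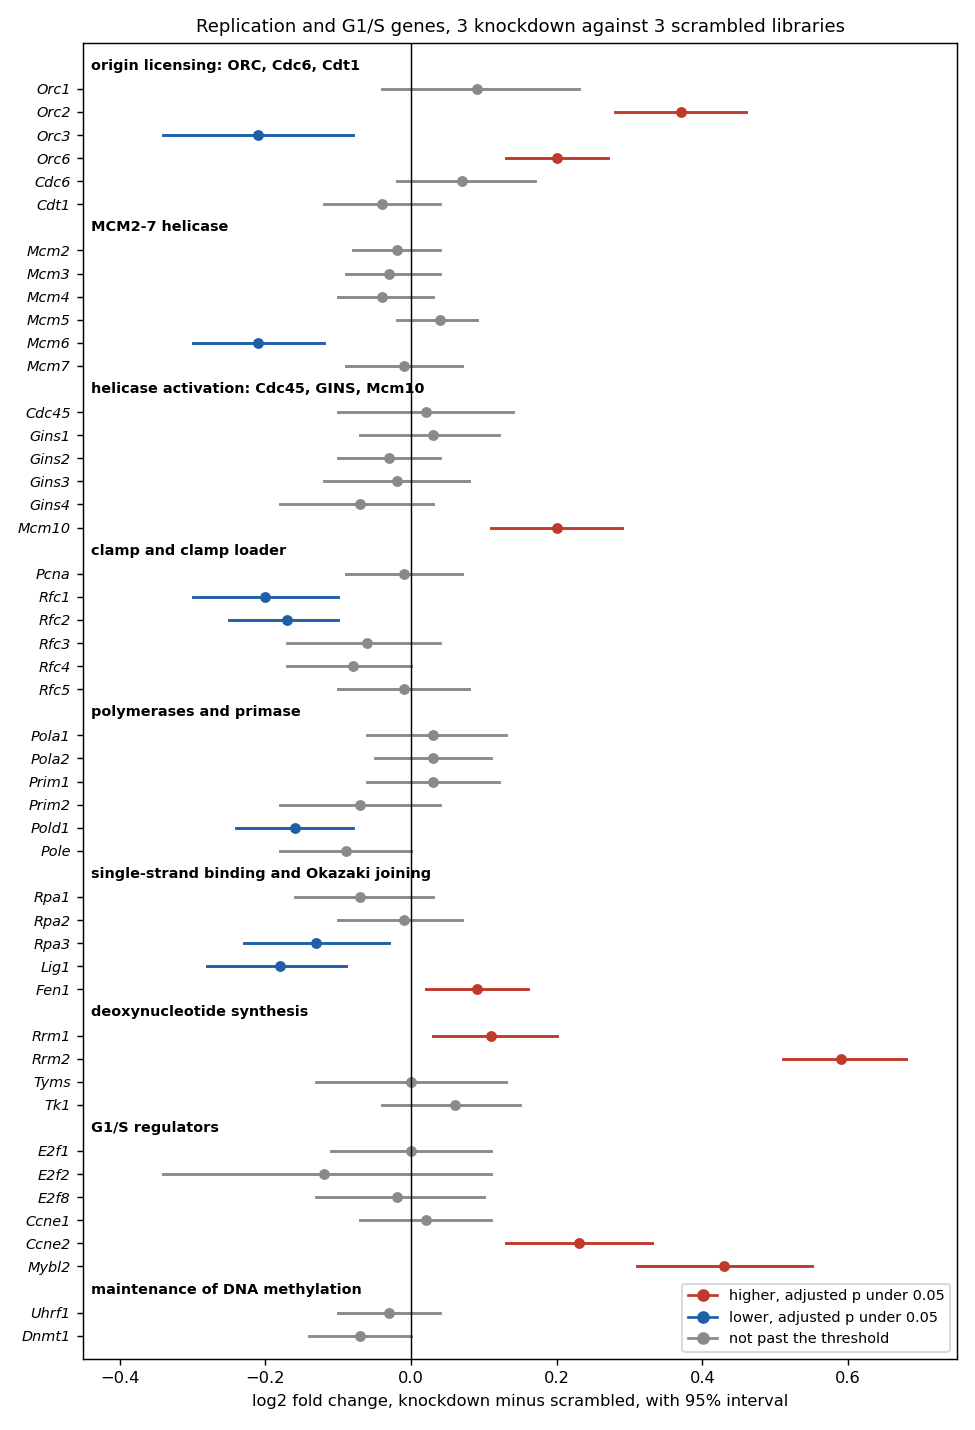
Log2 fold change on log2(FPKM + 0.5), knockdown minus scrambled, for each of the 47 genes grouped by role, with its 95% interval from limma (3 libraries a group). Red genes rose, blue genes fell and grey genes did not pass an adjusted p of 0.05. Most grey intervals are narrow and centred near 0, and Rrm2, Mybl2 and Orc2 lie furthest to the right.

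The genes not called were measured closely. The median standard error of a log2 fold change was 0.039 in the set and 0.053 over all tested genes, and the set was abundant, with a median FPKM of 32.5 against 10.7. The 95% interval of the fold change lay within 1.25-fold in either direction for 41 of the 47 genes (87.2%) and for 59.4% of all tested genes. For 31 of the 32 genes not called, the 95% interval of the fold change, not adjusted for the number of genes, lay within those bounds. The exception was E2f2, the least abundant of the set at 2.33 ± 0.332 FPKM in scrambled and 2.10 ± 0.155 after knockdown, with an interval of −0.34 to 0.11. Estimated changes of at least 1.25-fold (0.32 on the log2 scale) were found for 3 of the 47 genes (6.38%), Rrm2, Mybl2 and Orc2, and for 19.0% of all tested genes.

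**Figure D2:**
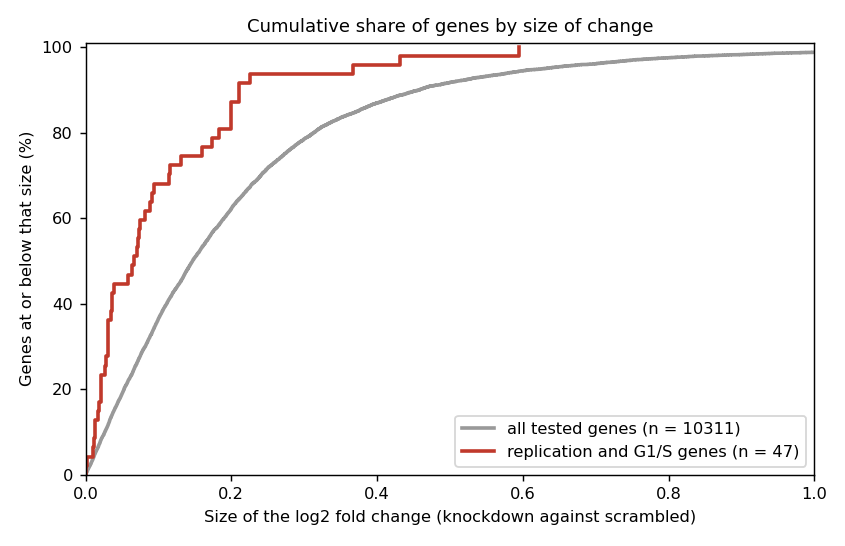
Cumulative share of genes (vertical axis, %) whose log2 fold change between knockdown and scrambled is at or below the size on the horizontal axis. The curve of the 47 replication and G1/S genes (red) lies to the left of that of all 10311 tested genes (grey), with medians of 0.07 and 0.15. The axis ends at 1, and some of all tested genes lie beyond it.

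Ribonucleotide reductase showed the widest change, in its regulatory subunit. The enzyme reduces ribonucleotides to deoxynucleotides, Rrm1 encodes its catalytic subunit and Rrm2 the subunit whose level tracks S phase. Rrm2 (GRCm38, chr12:24708241-24714146, plus strand) was measured at 93.6, 93.2 and 87.9 FPKM in the scrambled libraries, in order of batch, and at 144, 138 and 133 FPKM after knockdown. Every knockdown library was above every scrambled one. The log2 fold change of Rrm2 was 0.59 ± 0.04 (limma adjusted p = 2.15e-05), and within batches 1, 2 and 3 its log2 difference was 0.62, 0.57 and 0.60. Rrm1 went from 102 ± 3.11 to 111 ± 4.03 FPKM, a log2 fold change of 0.11 ± 0.04 (limma adjusted p = 0.0255). That smaller call was lost in 9 of the 17 alternatives, where the log2 fold change of Rrm1 ran from 0.01 to 0.18. Per length, the level of Rrm2 relative to Rrm1 was 0.918, 0.884 and 0.886 in scrambled and 1.26, 1.25 and 1.25 in knockdown libraries. In the deposited values Rrm2 thus lay below Rrm1 in each scrambled library and above it in each knockdown library. The gene lengths behind the FPKM, on which levels compared between genes depend, were not checked here. An exact permutation test of the ratio of Rrm2 to Rrm1 gave p = 0.1, the smallest that 3 libraries against 3 allow. The test thus could not pass the threshold, and the ratio was chosen after its values were seen, so this p-value decides nothing.

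The other enzymes of deoxynucleotide supply in the set did not pass. Tyms, which makes thymidylate, averaged 14.2 ± 0.567 and 14.2 ± 1.10 FPKM in scrambled and knockdown libraries, with a 95% interval of the log2 fold change from −0.13 to 0.13. Tk1, the thymidine kinase of S phase, averaged 68.0 ± 2.47 and 70.8 ± 3.41 FPKM (interval −0.04 to 0.15). Reads of Tyms and Pcna could be shared with processed pseudogenes annotated for each. Only pseudogenes named after a gene of the set were looked for, so any gene of the set may have others.

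G1/S regulators moved in Mybl2 and Ccne2. Mybl2 encodes B-Myb, a transcription factor of the S and G2 programme. Its gene (chr2:163054687-163084688, plus strand) read 22.0, 22.7 and 21.6 FPKM in the scrambled group, and 32.3, 29.6 and 28.1 FPKM after knockdown. Each knockdown value of Mybl2 exceeded each scrambled value, by a log2 fold change of 0.43 ± 0.05 (limma adjusted p = 0.000247). Ccne2, one of the E-type cyclins that drive CDK2 at the G1/S transition, went from 14.5, 13.7 and 14.2 FPKM to 15.9, 17.2 and 16.8 FPKM (0.23 ± 0.04, limma adjusted p = 0.00302). The other E-type cyclin, Ccne1, averaged 15.7 ± 0.515 and 15.9 ± 0.234 FPKM and did not pass (interval −0.07 to 0.11). The ratio of Ccne2 over Ccne1 averaged 0.903 ± 0.0562 in scrambled and 1.04 ± 0.0496 in knockdown libraries. Its exact permutation p was 0.1, the smallest allowed, so that test could not pass the threshold and decides nothing.

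E2F genes of the set did not pass. E2f1, the archetypal activator of replication genes, had means of 22.9 ± 1.20 and 22.9 ± 1.04 FPKM (log2 fold change 0.00, interval −0.11 to 0.11). E2f8, an atypical repressor of the same promoters, averaged 9.62 ± 0.203 and 9.51 ± 0.553 FPKM (interval −0.13 to 0.10).

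Origin licensing genes went both ways. The origin recognition complex marks origins in G1, and Orc2, Orc3 and Orc6 encode 3 of its subunits. Orc2 (chr1:58462771-58505109, minus strand) went from 15.8, 15.6 and 14.9 FPKM to 20.6, 19.9 and 19.6 FPKM after knockdown. Its log2 fold change was 0.37 ± 0.04 (limma adjusted p = 0.000147), and the groups did not overlap. Orc6 went from 48.6, 47.6 and 47.6 FPKM to 53.9, 55.4 and 56.0 FPKM (0.20 ± 0.03, limma adjusted p = 0.000728). Orc3 moved the opposite way, from 6.33, 6.95 and 6.77 FPKM to 5.43, 5.77 and 5.94 FPKM (−0.21 ± 0.06, limma adjusted p = 0.0127). That fall did not pass after median centring, under quantile normalization or without scrambled library 2. The level of Orc2 relative to Orc3 was 2.50, 2.24 and 2.20 in scrambled and 3.80, 3.46 and 3.31 in knockdown libraries. This ratio was chosen after its values were seen, and its exact permutation p of 0.1, the smallest allowed, decides nothing.

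Per length, the subunits of this complex differed in abundance beyond their spread. Averaged over all 6 libraries Orc6 stood at 51.5 FPKM, Orc2 at 17.7, Orc1 at 8.78 and Orc3 at 6.20. Orc1, the subunit best known for cycling in level, averaged 8.48 ± 0.531 and 9.08 ± 0.491 FPKM and did not pass (interval −0.04 to 0.23). Outside the set, Orc4 rose from 5.46 ± 0.335 to 6.37 ± 0.182 FPKM (0.21, limma adjusted p = 0.0147), a call lost without scrambled library 2 or without knockdown library 2. The licensing factor Cdc6 averaged 13.3 ± 0.169 and 14.0 ± 0.509 FPKM and its partner Cdt1 57.3 ± 2.39 and 55.8 ± 0.571 FPKM. Neither passed, although the 3 Cdc6 values in knockdown lay above the 3 in scrambled libraries.

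Of the 6 subunits of the MCM2-7 helicase, 1 fell and 5 did not pass, where 31.1% of all tested genes fell. Each role in the set holds at most 6 genes, too few to set against such a share. Mcm6 (chr1:128331590-128359664, minus strand) went from 69.9, 70.8 and 71.8 FPKM to 59.4, 59.4 and 64.7 FPKM after knockdown. The groups did not overlap, and the log2 fold change of Mcm6 was −0.21 ± 0.04 (limma adjusted p = 0.00212). The ring holds its subunits in equal number as protein, and their RNA levels are set beside each other here as a description only. Mcm2 had means of 103 ± 2.04 (scrambled) and 102 ± 0.194 FPKM (knockdown), Mcm5 106 ± 1.04 and 109 ± 1.29, and Mcm7 107 ± 1.94 and 107 ± 4.39. Mcm3 (87.6 ± 1.78 and 85.9 ± 0.927 FPKM) and Mcm4 (81.3 ± 1.69 and 79.1 ± 1.20 FPKM) lay somewhat lower. The Mcm6 transcript was thus the least abundant of the 6 per length in both groups. Relative to the mean of the other 5 subunits its level was 0.721, 0.728 and 0.738 in scrambled libraries. In knockdown libraries it was 0.624, 0.612 and 0.665. This ratio was also chosen after its values were seen, and its exact permutation p of 0.1, the smallest allowed, decides nothing. For the 5 subunits not called, the 95% intervals ran from −0.10 at the lowest to 0.09 at the highest on the log2 scale. Other scalings added calls among them: Mcm4 was lower after rescaling to TPM, Mcm2 and Mcm4 under quantile normalization and Mcm3 and Mcm4 once those trends were removed, while Mcm5 was higher after median centring.

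Among the factors that activate the helicase, Mcm10 rose and the rest did not pass. Mcm10, a scaffold that helps the helicase start moving, went from 16.4, 17.2 and 16.9 FPKM to 20.3, 18.8 and 19.2 FPKM (0.20 ± 0.04, limma adjusted p = 0.00361). Cdc45, which joins the ring at firing, averaged 18.2 ± 0.586 and 18.4 ± 1.30 FPKM with overlapping groups. The 4 GINS genes had means that spread from 8.24 FPKM (Gins3) through 14.8 (Gins1) and 32.5 (Gins4) to 79.2 (Gins2) over all libraries. Their log2 fold changes lay between −0.07 (Gins4) and 0.03 (Gins1), and for each of the 4 the groups overlapped.

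**Figure D3:**
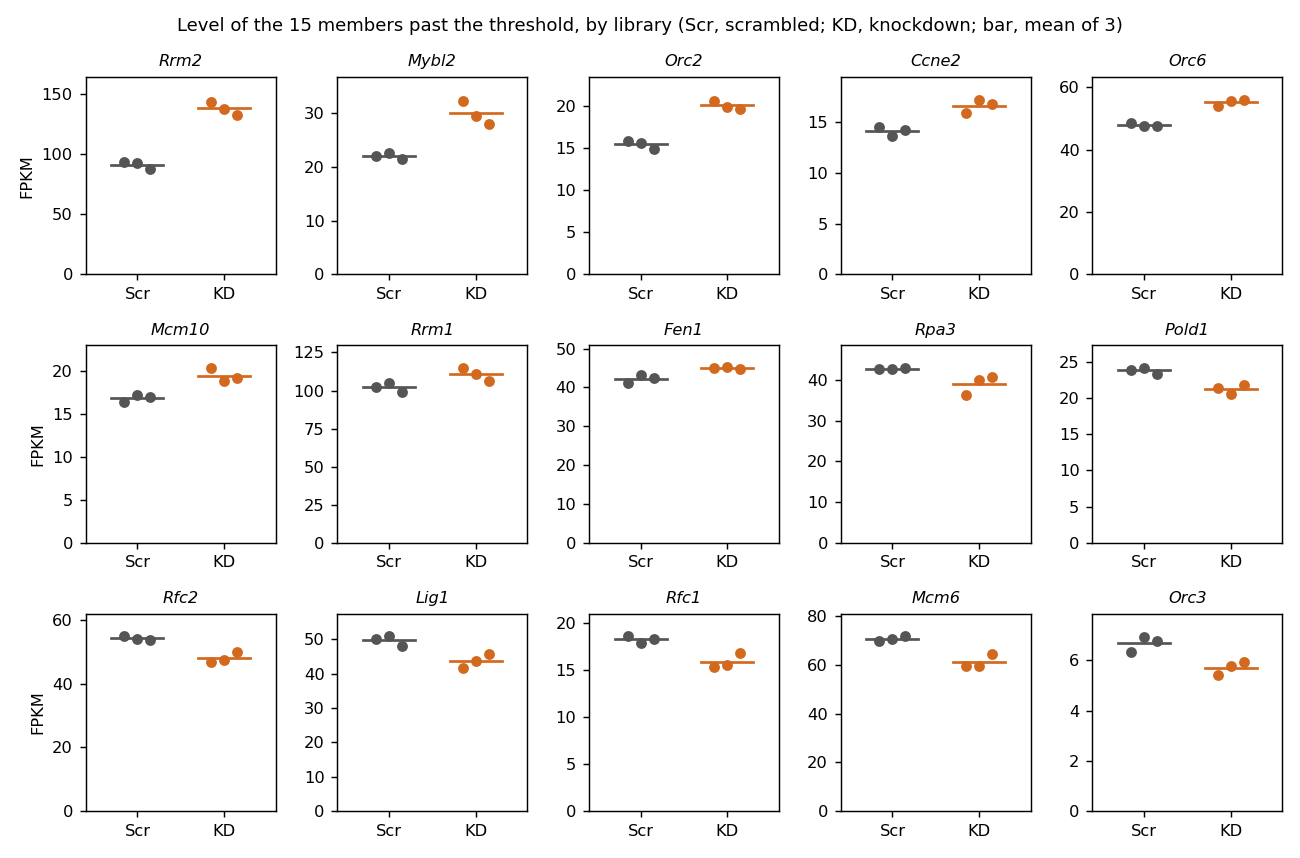
FPKM (vertical axes, from 0) of the 15 genes past the threshold in each scrambled (grey, Scr) and knockdown (orange, KD) library, with the mean of 3 as a bar, ordered from the largest rise to the largest fall. In each panel the 3 values of one group lie apart from the 3 of the other, and the gap is widest for Rrm2 at 91.6 against 138 FPKM.

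Clamp loader subunits Rfc1 and Rfc2 fell and the clamp itself did not pass. PCNA is the sliding ring that tethers polymerases to DNA, and RFC opens it. Pcna, the most abundant gene of the set, measured 240, 236 and 244 FPKM with the scrambled control and 228, 235 and 250 FPKM after knockdown, so the groups overlapped (interval −0.09 to 0.07). Rfc1, the large subunit, went from 18.6, 17.9 and 18.3 FPKM to 15.3, 15.5 and 16.8 FPKM (−0.20 ± 0.04, limma adjusted p = 0.00568). Rfc2 went from 54.9, 53.9 and 53.6 FPKM to 46.7, 47.5 and 49.8 FPKM (−0.17 ± 0.03, limma adjusted p = 0.00257). In both genes knockdown library 3 was the closest to the scrambled values. Rfc3, Rfc4 and Rfc5 had log2 fold changes of −0.06, −0.08 and −0.01 and did not pass, though the 3 Rfc4 values in knockdown lay below the scrambled ones, and Rfc4 was lower after rescaling to TPM and once those trends were removed.

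Polymerase delta's catalytic gene fell slightly, and polymerase alpha with primase did not pass. Pold1, the catalytic subunit of the polymerase assigned to the lagging strand, went from 23.9, 24.2 and 23.4 FPKM to 21.4, 20.6 and 21.8 FPKM (−0.16 ± 0.04, limma adjusted p = 0.00587), a call lost after median centring. Pole, the catalytic subunit of the leading-strand polymerase, averaged 18.7 ± 0.657 and 17.5 ± 0.240 FPKM without overlap and missed the threshold (−0.09, limma adjusted p = 0.0752). It passed after rescaling to TPM and with limma-voom. Pola1, Pola2 and Prim1 had the same log2 fold change of 0.03 and Prim2 one of −0.07, with overlapping groups in each. Of the small polymerase subunits outside the set, Pold4 fell from 4.80 ± 0.202 to 3.09 ± 0.475 FPKM (−0.57 ± 0.09, limma adjusted p = 0.00128), further than any gene of the set fell but on 44 to 94 fragments a library, and Pole4 averaged 24.5 ± 0.783 and 26.4 ± 1.08 FPKM and did not pass.

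Genes for single-strand binding and Okazaki joining went both ways. Lig1, the ligase that seals Okazaki fragments, went from 50.0, 50.9 and 48.2 FPKM to 41.7, 43.6 and 45.8 FPKM (−0.18 ± 0.04, limma adjusted p = 0.00529). Fen1, the nuclease that trims the same fragments, went from 41.2, 43.3 and 42.4 FPKM to 44.9, 45.2 and 44.8 FPKM (0.09 ± 0.03, limma adjusted p = 0.0390). The Fen1 call was lost in 9 of 17 alternatives, where its log2 fold change ran from 0.04 to 0.15. Rpa3, the smallest subunit of the single-strand binding protein RPA, averaged 42.8 ± 0.198 and 39.1 ± 2.41 FPKM (−0.13 ± 0.04, limma adjusted p = 0.0355). That call was lost in 8 of 17 alternatives, among them limma-voom, no filter, median centring, no variance trend and the omission of any scrambled library or of knockdown library 1. Rpa1 and Rpa2 stood at −0.07 and −0.01 on the log2 scale and did not pass.

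Genes that copy DNA methylation at the fork did not pass. Uhrf1, which recognises hemimethylated DNA, averaged 94.6 ± 1.48 and 92.6 ± 2.40 FPKM, with overlapping groups (interval −0.10 to 0.04). Dnmt1, the methyltransferase it recruits, averaged 77.1 ± 2.08 and 73.4 ± 0.296 FPKM, with the knockdown values below the scrambled ones (−0.07, limma adjusted p = 0.0732). Dnmt1 was lower past the threshold after rescaling to TPM, under quantile normalization and once those trends were removed.

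**Figure D4:**
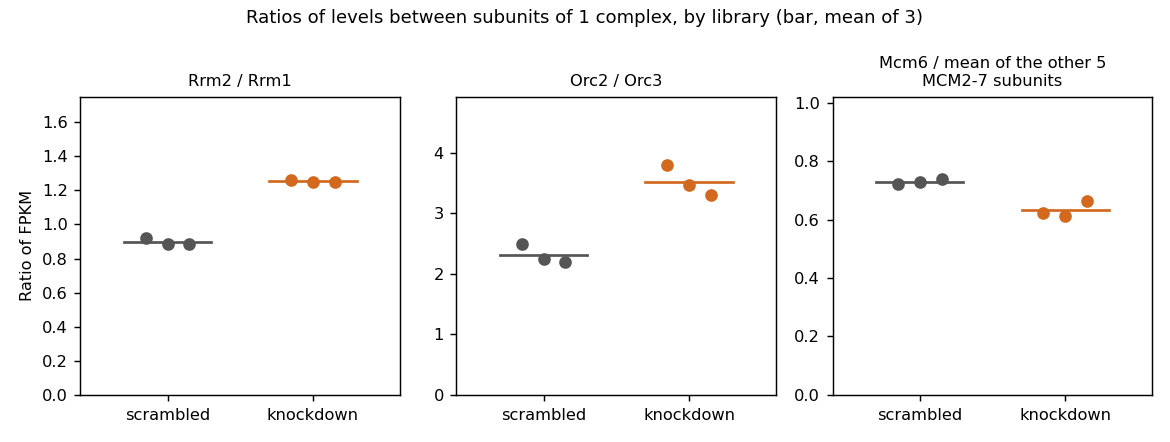
Ratio of FPKM between subunits of 1 complex in each scrambled (grey) and knockdown (orange) library, with the mean of 3 as a bar and each vertical axis from 0. Rrm2 over Rrm1 and Orc2 over Orc3 are higher in every knockdown library (means 0.896 to 1.25 and 2.31 to 3.52) and Mcm6 over its partners is lower in every one (0.729 to 0.634). These ratios were chosen after the values were seen.

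Exons of 15 genes of the set overlap a gene on the opposite strand in GENCODE M21, and the sources used here do not give the strand setting of the counting, so reads of such pairs cannot be told apart. Among them are 6 called genes. Orc2 shares 1150 bases with Nif3l1, which also rose, from a mean of 9.59 FPKM to one of 11.5 (0.25 on the log2 scale, limma adjusted p = 0.0101). Ccne2 shares 609 bases with Ints8, which rose by a log2 fold change of 0.14 (limma adjusted p = 0.00706). Orc6 shares 171 bases with Vps35, which did not pass (−0.03). The partner of Rfc2, Lat2, shares 952 bases and was near 0.3 FPKM, and that of Lig1, Zswim9, shares 247 bases and was under 1.5 FPKM. Fen1 shares 1909 bases with the antisense gene Gm10143, whose level was not analysed here, and 130 with Tmem258, which fell by 0.19. Of genes not called, Cdc45, Rfc4 and Rfc5 overlap Ufd1, Eif4a2 and Wsb2, which rose by 0.16, 0.26 and 0.19 on the log2 scale (limma adjusted p of 0.00329, 0.000183 and 0.0023). Mcm7, also not called, overlaps Cops6, which fell by 0.08 (limma adjusted p = 0.0398). The part of these overlaps in the results was not tested.

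The E2F-type letters were counted by call. Of the 8 genes that rose, 7 had a listed promoter and 0 held a match, and of the 7 that fell, 6 had one and 4 held a match (Orc3, Mcm6, Pold1 and Lig1). Of the 32 genes not called, 26 had a listed promoter and 12 held a match, among them Mcm3, Mcm5, Mcm7, Pola1, Cdt1 and Dnmt1. These counts are a description of the windows searched, no test was made of them, and no match says only that these letters are not in the window.

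Among the other pathway genes outside the set, those that control entry into S phase held most of the calls. Lists of 68 other pathway genes were drawn up, of which 67 were in the table and all 67 were tested. Of those, 16 rose, 14 fell and 37 did not pass (median log2 fold change 0.03). Over all tested genes, 19.8% were higher, 31.1% lower and 51.0% called in all. In the first 6 lists, which hold remaining subunits, firing factors, fork and checkpoint genes, licensing control, chromatin assembly and nucleotide enzymes, at most 3 genes a list were called. Dbf4, the activator of the CDC7 kinase that fires origins, rose from 52.8 ± 0.950 to 58.6 ± 0.638 FPKM (0.15, limma adjusted p = 0.00282), and Mtbp, a firing factor, fell by 0.22. Timeless, which protects forks, fell from 14.0 ± 0.532 to 11.7 ± 0.426 FPKM (−0.25, limma adjusted p = 0.00198). Chaf1a, a chaperone that loads histones behind the fork, fell by 0.12, a call lost after median centring and without scrambled library 1 or knockdown library 2. The calls of Chtf18 and Fbxo5 (higher) and of Mcm8 and Mcm9 (lower) were each lost in at least 7 alternatives.

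All 10 other E2F, DP and pocket protein genes passed, 6 higher and 4 lower, where 51.0% of all tested genes were called. Rb1, the retinoblastoma protein, went from 2.67, 2.66 and 2.79 FPKM to 1.87, 1.80 and 1.78 FPKM (−0.47 ± 0.06, limma adjusted p = 0.000517). Rbl2, the pocket protein p130 of resting cells, went from 8.04 ± 0.190 to 6.04 ± 0.198 FPKM (−0.39, limma adjusted p = 0.000280). Tfdp1, a partner with which most E2F proteins bind DNA, rose from 82.0 ± 0.532 to 93.9 ± 1.49 FPKM (0.20, limma adjusted p = 0.000456). Named here after their values were seen, E2f3, E2f4, E2f5, E2f6 and E2f7 also rose, by 0.15 to 0.26, and Rbl1 and Tfdp2 fell by 0.18 and 0.31. With the batch as a block the counts were 5 and 4, as E2f6 no longer passed (limma adjusted p = 0.0615 against 0.0409 without the block). Rescaling to TPM gave 4 and 4, and median centring, quantile normalization and trend removal each gave 6 and 3. Without scrambled library 3 only 3 rises were left, and 4 without scrambled library 1 or 2 or knockdown library 1.

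Of 10 G1 cyclins, kinases and their controllers, 5 rose and 4 fell, where 51.0% of all tested genes were called. Leaving out 1 library at a time gave 4 to 5 rises and 3 to 4 falls. Calls in this list were also lost after rescaling to TPM and after median centring. Cdkn1a, the CDK inhibitor p21, went from 20.5, 20.7 and 22.2 FPKM to 11.2, 11.8 and 10.8 FPKM, with no overlap (−0.88 ± 0.05, limma adjusted p = 1.49e-05). Ccnd2, a D-type cyclin, fell from 33.7 ± 0.826 to 22.3 ± 0.411 FPKM (−0.58 ± 0.03, limma adjusted p = 1.89e-05). Another D-type cyclin, Ccnd1, rose from 75.2 ± 4.35 to 95.7 ± 1.71 FPKM (0.35 ± 0.04, limma adjusted p = 0.000267). The remaining D-type cyclin, Ccnd3, named after its values were seen, rose from 44.6 ± 1.81 to 50.9 ± 1.76 FPKM (0.19 ± 0.04, limma adjusted p = 0.00451), so 2 D-type cyclins rose and 1 fell.

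Reference genes of G2 and mitosis also went both ways. Of 20 such genes, 4 rose, 5 fell and 11 did not pass (median log2 fold change −0.01). The called share of all tested genes was 51.0%. Mki67, the proliferation antigen, fell from 54.2 ± 1.48 to 46.5 ± 1.21 FPKM (−0.22, limma adjusted p = 0.000929), Top2a, the topoisomerase that untangles sister chromatids, from 137 ± 0.851 to 119 ± 4.26 FPKM (−0.21) and Ccnb2, a mitotic cyclin, from 75.7 ± 0.987 to 60.7 ± 4.41 FPKM (−0.32). These 3 falls held in all 17 alternatives, while the count of rises went from 0 after rescaling to TPM to 7 after median centring.

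**Figure D5:**
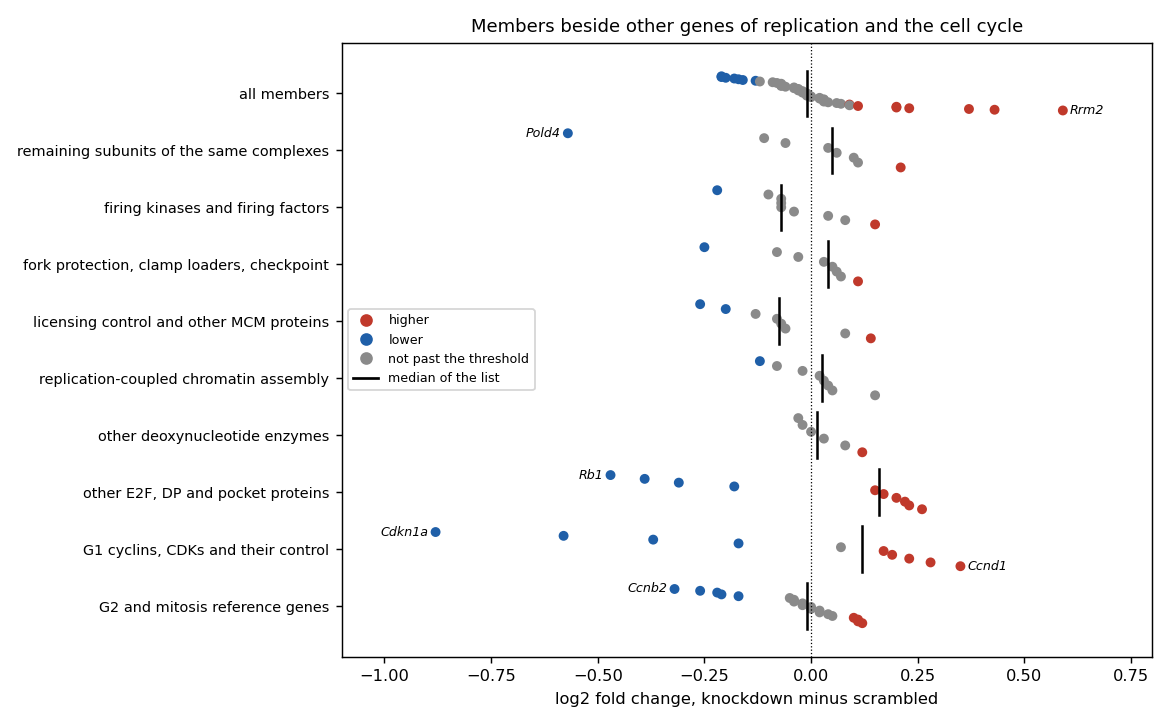
Log2 fold change (horizontal axis, knockdown minus scrambled) of each tested gene in the replication and G1/S set and in 9 other lists, with the median of each list as a black line and the outermost genes named where they pass 0.3 in size. Red genes rose, blue genes fell and grey ones did not pass. Points of the set crowd near 0, while the E2F and pocket protein list has no grey point and the G1 cyclin list has 1.

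The table's own pathway annotation assigns 35 genes to DNA replication, 23 of them in the set and all 35 tested, of which 2 were higher, 7 lower and 26 not called (median −0.04). Of the 12 that are outside the set, 1 was higher, 1 lower and 10 not called. Over all tested genes, 19.8% were higher and 31.1% lower.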

How the data were processed

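Messenger RNA was captured from 3 scrambled and 3 knockdown libraries. The authors deposited 1 table of FPKM values, 1 per gene and library. Builds GRCm38, mm10 and GRCm39 appear in the submitters' processing notes without a role; the aligner, the counter and their settings were not given in the sources used here. The gene set and all lists were chosen with earlier results of these data known.

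Values were changed to log2(FPKM + 0.5), a scale that understates the change of low genes, and compared with limma 3.58.1 in R 4.3.3 (two-sided, variance trend on mean level), without a batch term. Of 19877 genes, 10311 reached 1 FPKM in 3 or more libraries and were tested, with a threshold of 0.05 on the Benjamini-Hochberg adjusted p. Errors are the SD over 3 libraries for FPKM and the standard error for log2 fold changes. Fragments were recovered as the smallest whole numbers, within 0.002, that give a gene's FPKM values; all 19877 genes had a solution. They served for depth, shares and limma-voom only. The fit was tested on simulated data, where it recovered 39 of 50 genes changed 1.25-fold and 48 of 50 changed 1.5-fold. Of its 200 calls there, 13 were false. The simulation changed far fewer genes than were called in the data and gave every gene the same dispersion. Because the labels give the batches, same-numbered libraries are paired. Across tested genes, the deviations of such pairs from the group means correlated at 0.0859, 0.0120 and 0.189. For pairs of unlike number the correlations ran from −0.1726 to 0.1144. Named genes are any gene of the set, up to 3 of smallest p in each other list, Ifit1 and the most abundant markers; the ratios between subunits were chosen after their values were seen. Positions and GC content came from GENCODE M21 (GRCm38), which matched 97.1% of tested genes, and promoters from RefSeq (GRCm38.p6). Alternatives covered pseudocount, filter, scaling, batch block, variance model and single libraries left out. Protein sequences were not analysed here. The values of 1 gene from the other lists are not reported here.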

Additional observations from a re-analysis of the deposited data

How the results depend on the processing

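Each result was recomputed under 17 alternatives fixed with the tests. Of the 32 genes of the set not called, 17 stayed below the threshold in all 17. The replicate block, with the batch number of the labels as a term, left the counts of the set at 8 higher and 7 lower and changed no call in it; in the other lists the calls of Chtf18, Fbxo5 and E2f6 were lost and Asf1b became higher (limma adjusted p = 0.0106).

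A mean FPKM of at least 5 lowered the falls among all tested genes from 3209 to 2042, as fewer genes were tested. Rescaling to TPM gave 12 falls in the set with a median of −0.06, 10 rises among the other pathway genes and 0 among the G2 and mitosis genes. Median centring gave 13 rises and 4 falls in the set with a median of 0.05, 29 rises and 9 falls among the other pathway genes and 7 rises among the G2 and mitosis genes. Removing the trends on level, length and GC content gave 14 falls in the set. The rises among G2 and mitosis genes were 1 under quantile normalization and 2 without the variance trend. Leaving out 1 library at a time gave 6 to 8 rises and 5 to 9 falls in the set (median −0.04 to 0.01), 10 to 14 rises and 10 to 16 falls among the other pathway genes, and 2 to 3 rises among the G2 and mitosis genes. Where calls were lost or gained by scaling, the cause was not tested.

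Signs turned mostly for genes near 0, none of them called in the main result except Mcm9. Further from 0 in the main result were Mcm9, at −0.26, and E2f2, at −0.12. After median centring the log2 fold change was 0.03 for Cdt1, Mcm4 and Samhd1, 0.04 for Mcm2, Mcm3, Gins2, Gins3 and Uhrf1, 0.05 for Pcna, Rfc5, Rpa2 and E2f8, 0.06 for Mcm7 and 0.00 for Rfc3. After rescaling to TPM it was −0.01 for Mcm5, Pola1, Pola2 and Prim1, −0.02 for Gins1 and Ccne1, −0.03 for Cdc45 and −0.04 for Tyms and E2f1. Under quantile normalization it was −0.01 for Mcm5, 0.05 for Gins3, −0.00 for Prim1, 0.00 for Prim2, 0.07 for E2f2 and 0.06 for E2f8. Once those trends were removed it was −0.03 for Mcm5, 0.09 for Gins3, −0.01 for Prim1, 0.13 for E2f2, 0.04 for E2f8 and 0.02 for Mcm9. Leaving out single libraries turned the sign of 11 genes of the set, none of them called, over ranges of −0.03 to 0.02 for Mcm7 and Rpa2, −0.04 to 0.06 for Cdc45, −0.00 to 0.05 for Gins1, −0.03 to 0.00 for Gins3, −0.05 to 0.02 for Pcna, −0.04 to 0.03 for Rfc5, −0.00 to 0.06 for Prim1, −0.06 to 0.05 for Tyms, −0.04 to 0.04 for E2f1 and −0.06 to 0.01 for E2f8.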
